A study of Mus musculus with 6 samples.

Results

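The 10 genes described here, Clip2, Rfc2, Lat2, Eif4h, Limk1, Eln, Mlxipl, Tbl2, Bcl7b and Baz1b, were listed by name as neighbours of Gtf2ird1 in the mouse Williams-Beuren syndrome region on chromosome 5, with the TFII-I family (Gtf2i, Gtf2ird1 and Gtf2ird2) left out. They are 10 of 26814 gene symbols in the count table, and all 10 passed the filter on low values, a minimum of 1 CPM (a library's reads scaled to a fixed total) in no fewer than 3 libraries, which kept 15009 genes. The rule that lists them uses no measured value, although the list was drawn up with earlier results of these data known. The comparison asks whether the targeted Gtf2ird1 allele was accompanied by a change in the genes that flank it. RNA-Seq was carried out on the top lip of adult female mice: 3 knockout mice (KO) of the Gtf2ird1tm1Hrd line, kept on C57BL/6J, and 3 wild type mice (WT) on C57BL/6J, with 1 library per mouse. The KO mice carry the targeted allele in every tissue, and no further allele, agent or treatment is named for either genotype.

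The region takes its name from Williams-Beuren syndrome, a human neurodevelopmental disorder in which 1 copy of a block of neighbouring genes is lost. The block encodes proteins of unrelated function, among them the elastic fibre protein elastin, a kinase of the actin cytoskeleton, a microtubule-binding protein, a subunit of the DNA polymerase clamp loader, a translation factor and several chromatin proteins, and loss of elastin is the known basis of the arterial narrowing of the syndrome. In a mouse in which a single gene of the block is targeted, the flanking genes remain in place, so their transcripts can be measured beside the altered allele. In whole tissue their levels also depend on the mix of cells. An effect at the locus and a change in that mix were not separated here.

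The libraries held 20164081 to 29491767 counts on genes, and counts of the 10 genes ran from 140 for Lat2 in KO1 to 9937 for Eif4h in WT1. A count of 3, the most that a count of 0 allows, was 0.0986 to 0.154 CPM across the libraries and covers counting error only. Gtf2ird1 itself was higher in the libraries labelled KO, at 157 ± 11.7 CPM against 73.0 ± 4.5 CPM in WT (SD, n = 3 each; log2 fold change 1.11, adjusted p = 0.0018), so that all directions below compare libraries by their label. Neither the zygosity of the KO mice nor the part of the gene that the allele alters is in the sample labels, and a count for the whole gene does not show which part the reads cover. KO3 stood nearer to the WT libraries than KO1 and KO2 did, as described below for the 10 genes, and the calls of the 10 genes and of the lists beside them are given with and without it. The lists of lip cell type markers, keratinocyte markers of the epidermis among them, summed to more than 0 in all 6 libraries. The count table holds only genes with a read, so no marker in it could be at 0 in every library. It held 9 of 10 hair follicle markers and 6 of 7 T cell markers.

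With all 6 libraries, 0 of the 10 genes passed an adjusted p of 0.05 in edgeR's quasi-likelihood test, whereas 4.38% of all tested genes were called higher and 2.09% were called lower. At an unadjusted p under 0.05 there were 2 of the 10, Mlxipl and Bcl7b, against 29.6% of all tested genes. Mlxipl, encoding the glucose-responsive transcription factor ChREBP, had the lowest p and was called lower by edgeR's exact test, by DESeq2 and by limma-voom, each of which called 1 of the 10. Those tests called 7.15%, 7.61% and 2.21% of all genes lower. At an adjusted p under 0.1, Mlxipl was again the 1 gene of the 10, and 8.53% of all genes were lower. The log2 fold change was negative for 8 of the 10 genes and positive for Lat2 and Baz1b, with a median of -0.20, whereas 52.0% of all tested genes were negative with a median of -0.02. In absolute size the median was 0.28 for the 10 genes and 0.30 for all tested genes. The signed median of the 10 genes depended on the libraries used. It was -0.03 without KO1, -0.02 without KO2 and -0.32 without KO3, against 0.03, 0.04 and -0.03 for all tested genes. Rfc2 and Eif4h were positive without KO1 and without KO2, and Tbl2 was positive without KO2. In Mlxipl and Bcl7b every KO value lay below every WT value, an arrangement found in 18.1% of all tested genes, and none of the 10 had every KO value above every WT value, an arrangement found in 13.5%. As these are 3 against 3 mice, the p-values measure the spread between these mice only.

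**Figure D1:**
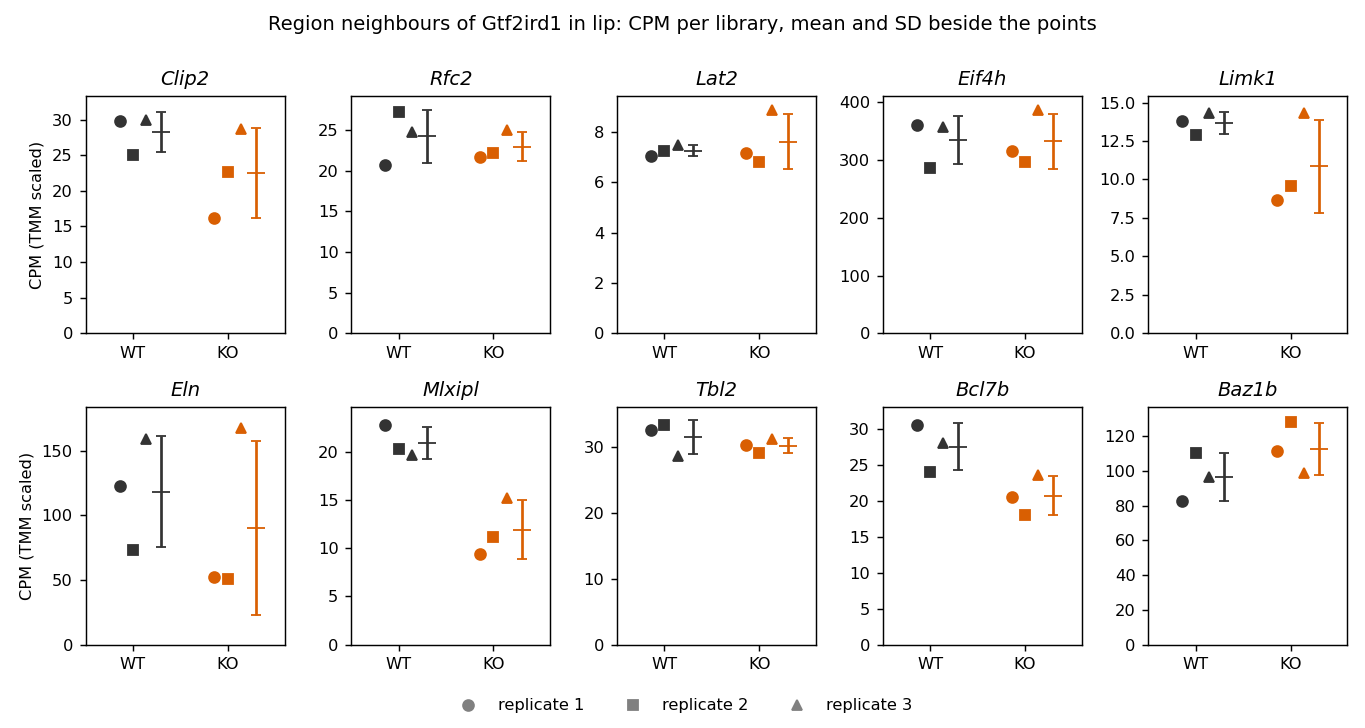
CPM (TMM scaled, linear axis from 0) of the 10 genes in each WT library (black) and KO library (orange), with the shape of the point giving the replicate number and the bar beside the points giving the mean and SD of 3 mice. The groups are apart in Mlxipl and Bcl7b, and in Eln, Limk1 and Clip2 the KO3 triangle sits with the WT points.

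Promoter windows are shown for Gtf2ird1, the altered gene, and for Mlxipl and Bcl7b, the members whose WT and KO values did not overlap. Windows from RefSeq, on GRCm38.p6, run from 250 bases before a start to 50 bases after it and were found for 7 of the 10 genes, as 9 windows (Limk1 and Mlxipl have 2 each). No window was found for Eln, Rfc2 and Lat2. Capitals mark GGATTA, or its reverse complement TAATCC, the core of the sequence that GTF2IRD1 protein is known to bind in its own promoter, and CACGTG, the E-box core bound by transcription factors of the helix-loop-helix kind, to which Mlxipl belongs.

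Gtf2ird1 (chr5:134456667-134456966, minus strand): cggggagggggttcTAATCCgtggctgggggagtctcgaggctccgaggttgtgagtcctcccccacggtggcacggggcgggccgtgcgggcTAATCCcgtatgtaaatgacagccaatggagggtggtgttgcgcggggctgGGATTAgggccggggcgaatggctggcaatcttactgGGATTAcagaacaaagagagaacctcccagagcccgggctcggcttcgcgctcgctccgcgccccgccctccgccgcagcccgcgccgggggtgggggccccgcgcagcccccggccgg

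Mlxipl (chr5:135089640-135089939, plus strand): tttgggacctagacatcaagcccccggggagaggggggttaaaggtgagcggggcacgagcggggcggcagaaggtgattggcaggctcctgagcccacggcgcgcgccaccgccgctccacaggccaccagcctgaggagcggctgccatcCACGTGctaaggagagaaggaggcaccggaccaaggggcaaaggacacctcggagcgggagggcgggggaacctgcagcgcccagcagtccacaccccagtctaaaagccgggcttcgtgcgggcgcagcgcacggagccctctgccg

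Bcl7b (chr5:135168122-135168421, plus strand): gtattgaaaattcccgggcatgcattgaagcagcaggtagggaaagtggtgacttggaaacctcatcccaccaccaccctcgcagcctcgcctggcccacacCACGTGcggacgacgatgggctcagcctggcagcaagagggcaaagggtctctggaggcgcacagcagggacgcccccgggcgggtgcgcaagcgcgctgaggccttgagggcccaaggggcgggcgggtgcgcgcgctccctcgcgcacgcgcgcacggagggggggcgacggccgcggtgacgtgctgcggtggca

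The Gtf2ird1 window held GGATTA 4 times over both strands, with the first letter 236, 157, 106 and 69 bases before the start. Across 32851 promoter windows of the same length, 7.06% held these letters at least once and 2 windows held them 4 or more times. None of the 9 windows of the 10 genes held GGATTA, which says only that these letters are not in those 300 bases. CACGTG, which reads the same on both strands and does not overlap with GGATTA, was found in 7.15% of all windows and in 3 of the 9, namely those of Eif4h, Mlxipl and Bcl7b. A second Mlxipl window (chr5:135106641-135106940) had neither motif. These matches describe the sequence and were not tested as binding sites.

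The nearest of the 10 genes was Clip2 (134489383 to 134552434, minus strand), 32.7 kb beyond the 5′ end of Gtf2ird1. Clip2 encodes CLIP-115, which binds the growing ends of microtubules. It stood at 29.8, 25.0 and 29.9 CPM in WT1, WT2 and WT3, and at 16.1, 22.6 and 28.7 CPM in KO1, KO2 and KO3. KO1 and KO2 were below every WT library, while KO3 was within the WT range. Clip2 thus had a log2 fold change of -0.33 with a standard error of 0.22 (95% interval -0.82 to 0.17, adjusted p = 0.333). It was -0.54 without KO3 (adjusted p = 0.0503) and -0.08 without KO1 (adjusted p = 0.848). Clip2 overlaps the antisense gene Gm42884 over 313 exonic bases. The strand setting of the counting is not given in the sources used here, so reads of such a pair cannot be told apart.

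Rfc2 and Lat2 are a tail-to-tail pair that shares 952 exonic bases on opposite strands, 15.1% of the exonic length of Rfc2 and 36.3% of that of Lat2. Rfc2 (134581366 to 134601805, plus strand) encodes a subunit of replication factor C, which loads the sliding clamp PCNA on DNA. Its values were 20.7, 27.2 and 24.8 CPM in WT and 21.6, 22.2 and 25.0 CPM in KO. All 3 KO values lay inside the WT range. Its log2 fold change was -0.08 with a 95% interval of -0.43 to 0.28, that is, between 0.740 and 1.21 times the WT level. Lat2 (134600022 to 134615025, minus strand) encodes NTAL, a membrane adaptor of B cells, mast cells and other myeloid cells. It had the lowest CPM of the 10 genes, with 7.04, 7.23 and 7.47 CPM in WT and 7.16, 6.81 and 8.87 CPM in KO. KO3 was the highest of the 6 libraries and KO2 the lowest, and the groups overlapped (log2 fold change 0.07, 95% interval -0.33 to 0.47).

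Eif4h (134619721 to 134639490, minus strand) encodes a factor that stimulates the RNA helicase eIF4A during the start of translation, and it was the most abundant of the 10 genes. It stood at 361, 287 and 358 CPM in WT and at 315, 297 and 387 CPM in KO. WT2 was the lowest library and KO3 the highest. For Eif4h the log2 fold change was -0.01 with a standard error of 0.16, and its 95% interval of -0.38 to 0.36 spans 0.768 to 1.29 times the WT level. Tbl2 (135149657 to 135165760, plus strand), which encodes a protein of the endoplasmic reticulum that binds the stress kinase PERK, had the smallest standard error of the 10 genes, 0.13. Its values were 32.7, 33.4 and 28.7 CPM in WT and 30.4, 29.1 and 31.3 CPM in KO, and all 3 KO values lay inside the WT range. Tbl2 had a log2 fold change of -0.06 with an interval of -0.36 to 0.24. Rfc2, Lat2, Eif4h and Tbl2 were the 4 members with an absolute log2 fold change under 0.1, and the sign of each turned when 1 library was left out (Rfc2 between -0.18 and 0.07, Lat2 between -0.05 and 0.20, Eif4h between -0.13 and 0.13, Tbl2 between -0.13 and 0.04). For Eif4h the sign also turned under DESeq2's size factors.

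Limk1 and Eln are next to each other, 199 kb and 246 kb from Gtf2ird1. Limk1 (134656039 to 134688598, minus strand) encodes LIM kinase 1, which phosphorylates cofilin and so slows the turnover of actin filaments. It stood at 13.8, 12.9 and 14.3 CPM in WT, a narrow spread, and at 8.65, 9.57 and 14.3 CPM in KO. KO1 and KO2 were below every WT library, and KO3 was level with the highest of them, above it by less than the rounding shown. With all libraries the log2 fold change was -0.34 (95% interval -0.82 to 0.15, adjusted p = 0.316). Without KO3 it was -0.58 (adjusted p = 0.0245), whereas it was -0.14 without KO1 (adjusted p = 0.758) and -0.20 without KO2 (adjusted p = 0.703).

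Eln (134702593 to 134747323, minus strand) encodes tropoelastin, the extensible core of elastic fibres made by fibroblasts and smooth muscle cells. Eln varied most of the 10 genes, with 123, 73.4 and 159 CPM in WT and 52.0, 50.5 and 168 CPM in KO. KO1 and KO2 were the lowest of the 6 libraries and KO3 the highest. For Eln the log2 fold change was -0.39 with a standard error of 0.49, and the 95% interval of -1.51 to 0.72 spans 0.351 to 1.65 times the WT level (adjusted p = 0.61). Leaving out 1 library moved it between -1.20 (without KO3, adjusted p = 0.0106) and -0.05 (without KO2). Eln shares 267 exonic bases with the antisense gene Gm30003.

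Marker sums of the cells that make or border elastic fibres are given beside Eln. The summed level of 10 dermal fibroblast markers was 6671 to 8657 CPM in WT and 2916, 3675 and 6926 CPM in KO1, KO2 and KO3, with 9 of the 10 negative and 0 called (3 at an unadjusted p under 0.05, 1 by the exact test and by DESeq2, 0 by limma-voom, 6 without KO3). The sum of 10 smooth muscle and pericyte markers was 1101 to 1520 CPM in WT and 619, 750 and 999.7 CPM in the KO libraries, with 9 negative and Tagln called lower (5 called without KO3). That of 10 endothelial markers was 342.9 to 391.5 CPM in WT and 220.2, 244.1 and 375.2 CPM in KO, with 10 negative and 0 called (4 at an unadjusted p under 0.05, 1 by the exact test and by DESeq2, 0 by limma-voom, 7 without KO3). Of all tested genes, 29.6% had such a p and 2.09% were called lower. The exact test called 7.15% lower, DESeq2 7.61% and limma-voom 2.21%, and 33.0% were called in either direction without KO3. In the sums of all 3 lists KO1 and KO2 were below every WT library, as for Eln. KO3, the highest of the 6 libraries for Eln, was inside the WT range for the fibroblast and endothelial sums and below it for the smooth muscle sum. Most of the fibroblast sum came from Col1a1, Col1a2 and Col3a1, at 1813, 1971 and 2147 CPM in KO3, each inside its WT range. Dcn, the next largest, did not share this order. It stood at 614, 985 and 693 CPM in WT and at 663, 656 and 568 CPM in KO1, KO2 and KO3. Des made the largest part of the smooth muscle sum, at 915, 539 and 704 CPM in WT and 192, 247 and 457 CPM in KO. Its log2 fold change was -1.27, against medians of -0.45 for this list and -1.01 for the skeletal muscle markers given below. Notch3, at 0.10, was the 1 positive marker of the list, and Myh11 was at -0.05. The part of these markers in the values of Eln was not tested, and in whole tissue fewer cells of a type and less RNA per cell cannot be told apart.

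Mlxipl (135089890 to 135138382, plus strand), 633 kb from Gtf2ird1, encodes ChREBP, which pairs with MLX and switches on genes of sugar use and fat synthesis. It stood at 22.8, 20.4 and 19.7 CPM in WT1, WT2 and WT3, and at 9.36, 11.2 and 15.3 CPM in KO1, KO2 and KO3. All 3 KO libraries were below all 3 WT libraries, KO1 the furthest and KO3 the nearest, and the spread of the KO values exceeded that of the WT values (SD 3.02 against 1.67 CPM). The log2 fold change was -0.81 with a standard error of 0.20 (95% interval -1.27 to -0.35), a KO level of 0.571 times the WT level with an interval of 0.413 to 0.787. The adjusted p was 0.0544 in edgeR's quasi-likelihood test, 0.0106 in the exact test, 0.00716 in DESeq2 and 0.0468 in limma-voom, and over the alternatives that kept all libraries it ran from 0.00716 to 0.0807. Removing KO3 gave the lowest value, -1.02 (adjusted p = 0.00281), and removing KO1 the highest, -0.60 (adjusted p = 0.198), while the adjusted p was highest, 0.242, without KO2. Mlxipl overlaps the antisense gene Gm43500 over 235 exonic bases.

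Beside Mlxipl, the marker sums of skeletal muscle, adipocytes and hair follicle were lower in every KO library than in every WT library, and that of the sebaceous gland was lower in KO1 and KO2. The sum of 12 skeletal muscle markers, 11 of them tested, was 11350 to 15830 CPM in WT and 4669, 6228 and 9692 CPM in the KO libraries, with 11 negative and Pvalb, Tnnt3 and Tnni2 called lower (10 called without KO3). For 10 adipocyte markers it was 251.1 to 319.7 CPM in WT and 172.2, 203.8 and 203.1 CPM in KO, with 9 negative and Fabp4 called lower (5 called without KO3). For 10 sebaceous gland markers it was 4999 to 6227 CPM in WT and 3466, 4196 and 5487 CPM in KO, with 8 negative, Awat1 called lower and Scd3 called higher (5 called without KO3). For hair follicle markers, 10 listed of which 9 were in the count table and tested, it was 8336 to 10670 CPM in WT and 5637, 7192 and 7134 CPM in KO, with 9 negative and Hoxc13 called lower (5 called without KO3). In the order muscle, adipocyte, sebaceous gland and hair follicle, 11, 6, 6 and 7 markers had an unadjusted p under 0.05 (29.6% of all tested genes). The exact test called 9, 3, 1 and 2 lower (7.15% of all genes) and 0, 1, 1 and 0 higher (1165 of 15009 genes). In the quasi-likelihood test 2.09% of all genes were called lower and 4.38% higher, and 33.0% were called without KO3. The part of these markers in the values of Mlxipl was not tested.

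Bcl7b (135168283 to 135181855, plus strand) encodes a subunit of the BAF chromatin remodelling complex. It stood at 30.5, 24.0 and 28.1 CPM in WT and at 20.5, 18.1 and 23.5 CPM in KO. The KO and WT ranges did not meet, but KO3 and WT2, the nearest pair, were 23.5 and 24.0 CPM. The log2 fold change was -0.41 (standard error 0.16, 95% interval -0.79 to -0.04), with an unadjusted p of 0.0347 and an adjusted p of 0.141. The adjusted p ran from 0.118 to 0.288 over the alternatives with all libraries, and without KO3 it was 0.0394 at a log2 fold change of -0.51. Without KO2 the log2 fold change of Bcl7b was -0.265 (adjusted p = 0.481).

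Baz1b (135187264 to 135246129, plus strand) encodes WSTF, a subunit of ISWI chromatin remodelling complexes and a kinase of the histone variant H2A.X. It had the largest positive log2 fold change of the 10 genes, with 82.9, 111 and 96.3 CPM in WT and 111, 128 and 98.6 CPM in KO. KO2 was above every WT library, KO1 stood just above the highest of them, WT2, and KO3 was within the WT range. It was the only 1 of the 10 genes in which KO3 was not the highest KO library. For Baz1b the log2 fold change was 0.22 (standard error 0.16, 95% interval -0.14 to 0.59, adjusted p = 0.371), and it stayed positive, between 0.12 and 0.39, with each library left out. Sums of 8 suprabasal keratinocyte markers were 19650 to 24310 CPM in WT and 47010, 40270 and 30590 CPM in KO, with 7 positive and Ivl called higher (5 called without KO3), and those of 8 basal keratinocyte markers were 11260 to 12150 CPM in WT and 12800, 11530 and 12770 CPM in KO, with 4 positive and Dst called higher (1 called without KO3). Of all tested genes 4.38% were called higher, and 33.0% were called without KO3. The part of these markers in the values of Baz1b was not tested.

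Marker lists of immune cells gave mixed values beside Lat2. The sum of 10 mast cell markers was 214.4 to 264.6 CPM in WT and 156.2, 165.9 and 199.3 CPM in KO, with 7 negative, and that of 12 macrophage and monocyte markers was 570.9 to 625.6 CPM in WT and 417.7, 422.1 and 601.2 CPM in KO, with 9 negative. Neither list had a called gene (5 mast cell and 3 macrophage markers had an unadjusted p under 0.05, and the exact test and DESeq2 each called 2 and 0). Without KO3, 6 mast cell and 5 macrophage markers were called. Of all tested genes 29.6% had an unadjusted p under 0.05, and 33.0% were called without KO3. The sum of 6 B cell markers did not exceed 5.12 CPM in any library, and the only 1 that was tested, Blk, was called higher, though not by limma-voom or without KO3. T cell markers, 7 listed, 6 in the count table and 4 tested, summed to 13.7 to 18.2 CPM in WT and 13.9, 18.9 and 26.0 CPM in KO with 0 called in any of the 4 tests, 0 without KO3 and 0 at an unadjusted p under 0.05. Lat2 itself differed between genotypes by less than the spread among the KO libraries.

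Per kilobase of exon, the WT levels in descending order were Eif4h (60.3 CPM per kb), Eln (14.6), Bcl7b (11.4), Baz1b (7.07), Clip2 (5.44), Tbl2 (4.02), Rfc2 (3.84), Mlxipl (3.78), Lat2 (2.76) and Limk1 (1.91). Among neighbours in this order, the WT libraries overlapped between Eln and Bcl7b, between Tbl2 and Rfc2 and between Rfc2 and Mlxipl, so that these neighbours did not differ beyond their spread. In the KO libraries the same order held except that Mlxipl (2.16 CPM per kb) stood below Lat2 (2.91), with overlapping values. There the neighbours Eln and Bcl7b, Bcl7b and Baz1b, Clip2 and Tbl2, Tbl2 and Rfc2, and Mlxipl and Limk1 overlapped as well. Eif4h stood apart at the top in both genotypes. The lengths are those of all annotated exons of a gene together, so that a gene with many unused exons is placed too low.

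The 10 genes were then read library by library, as the log2 difference of each KO library from the WT mean. The median over the 10 genes was -0.28 in KO1, -0.24 in KO2 and 0.05 in KO3. In KO1, 5 of the 10 genes were below every WT library and 1 was above every WT library, against 38.1% and 38.0% of all tested genes. In KO2 these counts were 6 and 1, against 38.7% and 34.7%, and in KO3 they were 2 and 4, against 34.8% and 25.2%. KO3 was the highest KO library in 9 of the 10 genes, compared with 44.5% of all tested genes.

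**Figure D2:**
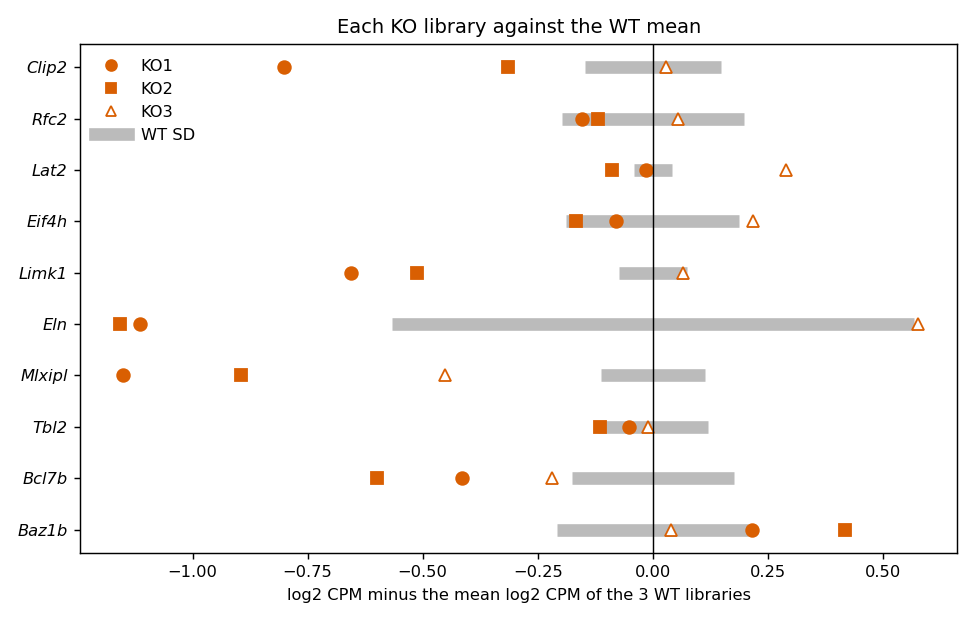
Log2 CPM of each KO library minus the mean log2 CPM of the 3 WT libraries for the 10 genes, in order of distance from Gtf2ird1, with the grey bar giving 1 SD of the WT libraries on either side. KO1 and KO2 lie left of KO3 in 9 of 10 genes, and Mlxipl and Bcl7b have all 3 libraries left of the grey bar.

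Without KO3, 4 of the 10 genes were called lower, namely Limk1, Eln, Mlxipl and Bcl7b, and none was called higher, while 16.2% of all tested genes were then called lower and 33.0% were called in either direction. None of the 10 passed when any other library was left out. Among all tested genes, 314 were called lower with all libraries and 2395 without KO3. Eln and Limk1 were not below the WT range in KO3, whereas Mlxipl and Bcl7b were below the WT range there too.

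**Figure D3:**
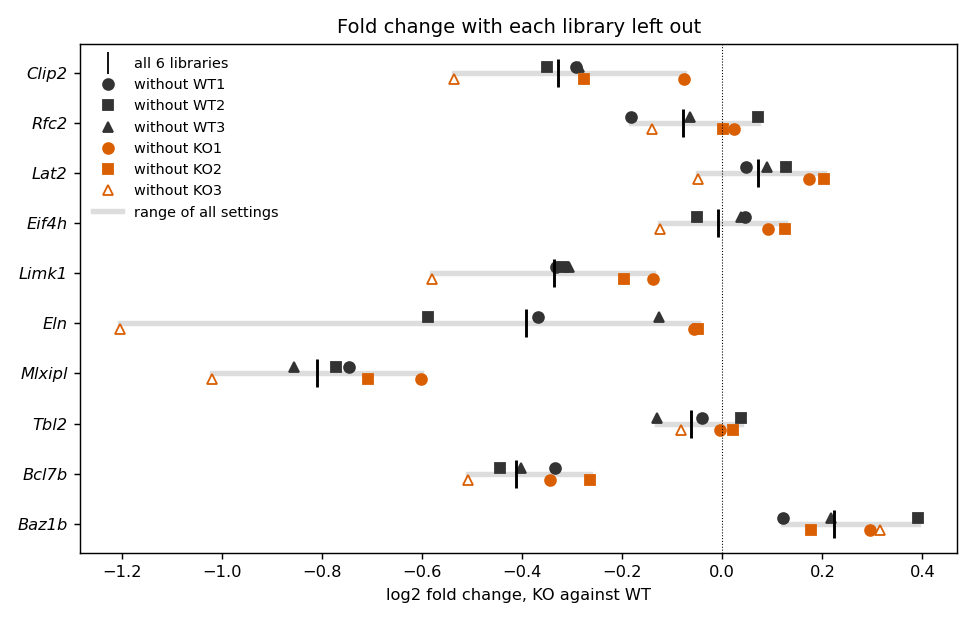
Log2 fold change of the 10 genes (KO against WT) with all 6 libraries (black line) and with each library left out (points), over a grey line that spans every setting tried. Removing KO3 (open triangle) moved Eln to -1.20 and Mlxipl to -1.02, and Rfc2, Lat2, Eif4h and Tbl2 cross 0.

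The genes around Gtf2ird1 were next taken by distance, irrespective of the list. Within 1 Mb on either side, 28 genes other than Gtf2ird1 were tested, the 10 among them, and 0 were called by edgeR's quasi-likelihood test, with 7 at an unadjusted p under 0.05 (29.6% of all tested genes). The exact test called 2 lower, DESeq2 3 and limma-voom 1, against 7.15%, 7.61% and 2.21% of all tested genes called lower. The log2 fold change was negative for 25 of the 28, all but Lat2, Wbscr22 and Baz1b, with a median of -0.27, and for 22 (no filter) to 26 (upper-quartile scaling) under the other scalings and filters. With 1 library left out it was negative for 19 (without KO1) to 25 (without KO3). In 7 of the 28 the highest KO value was under the lowest WT value (Cldn4, Cldn3, Abhd11, Vps37d, Mlxipl, Bcl7b and Fzd9), and the opposite arrangement was found in 0, where these arrangements were found in 18.1% and 13.5% of all tested genes. From 1 to 5 Mb the median was -0.17 over 103 tested genes, of which 3 were called higher (Gm15753, 4933404O12Rik and Trim56) and 3 lower (Tfr2, Cyp2w1 and Fam20c). Over the rest of chromosome 5 the median was 0.02 (778 genes, 36 higher and 12 lower), and over the other chromosomes it was -0.03 (13953 genes, 602 higher and 299 lower). The median within 1 Mb depended on the libraries used, and was -0.097 without KO1 and -0.34 without KO3, where 8 of the 28 and 16.2% of all genes were called lower.

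**Figure D4:**
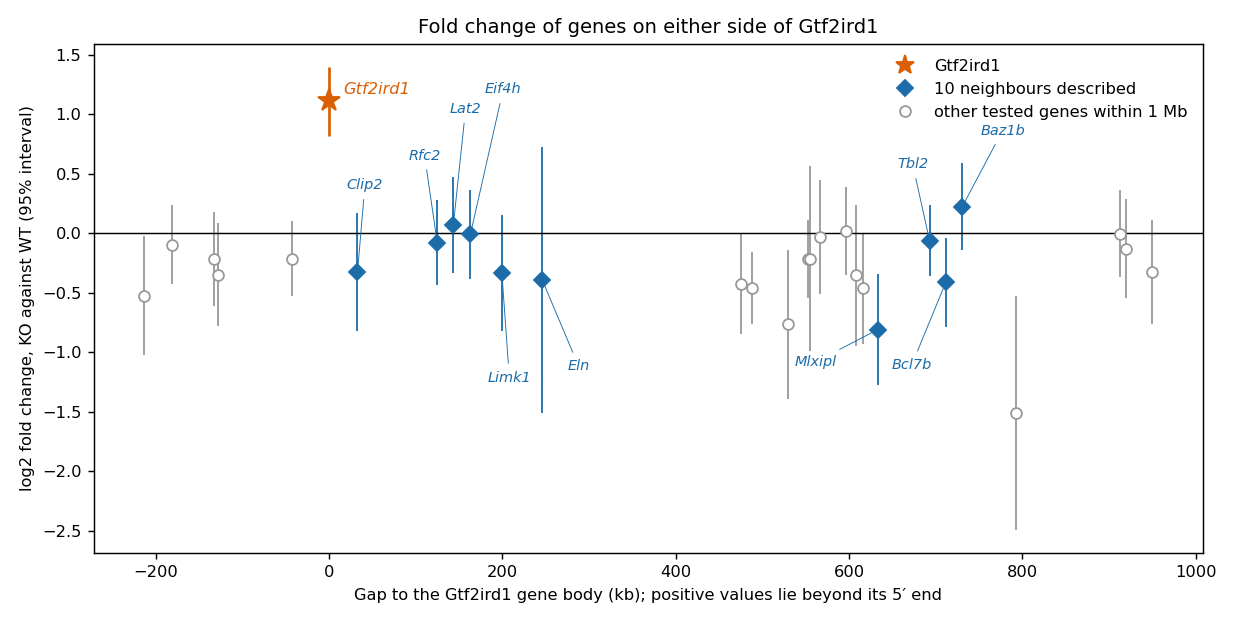
Log2 fold change (KO against WT) with its 95% interval, against the gap in kb between each gene body and that of Gtf2ird1, for Gtf2ird1 (star), the 10 genes (diamonds) and the other tested genes within 1 Mb (circles). Gtf2ird1 stands at 1.11, and 25 of the 28 others lie below 0, where the nearest of the 10 genes, Clip2, is at -0.33 and Mlxipl, 633 kb away, is at -0.81.

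Of 15 further single-copy genes of the region, 14 could be read and 11 were tested, of which 0 were called by the quasi-likelihood test, 1 by the exact test, 2 by DESeq2 and 0 by limma-voom, with 4 at an unadjusted p under 0.05, and 3 were called without KO3. Of all tested genes 29.6% had such a p and 33.0% were called without KO3, so these counts are near the background. Of these, 10 were negative, with a median of -0.35. The 3 with the lowest p were Fzd9, Cldn4 and Cldn3. Fzd9, a receptor for Wnt ligands, stood at 4.15 ± 1.25 CPM in WT and 1.45 ± 0.88 CPM in KO (SD, n = 3; log2 fold change -1.51, adjusted p = 0.0737). It was the gene called by the exact test (adjusted p = 0.00354). DESeq2 called it too (adjusted p = 0.0126), while limma-voom did not (adjusted p = 0.0659). Its KO values rest on 14, 37 and 53 counts in KO1, KO2 and KO3. Cldn4 and Cldn3, which encode claudins of tight junctions, had log2 fold changes of -0.46 (adjusted p = 0.0765) and -0.77 (adjusted p = 0.114). Cldn4 was the other gene called by DESeq2 (adjusted p = 0.0312, against 0.113 in the exact test). Trim50, Fkbp6 and Tmem270 had at most 2 counts in any library and were not tested. The TFII-I family members Gtf2i and Gtf2ird2 each had a log2 fold change of -0.21 and were not called (adjusted p of 0.327 for Gtf2i, 0.426 for Gtf2ird2).

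Each of the 10 genes was set beside a list of genes whose products work with its own. These lists were chosen with earlier results of these data known and carry no test of their own, and their medians stand against -0.02 over all tested genes.

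The 16 elastic fibre genes beside Eln, which encode fibrillins, fibulins, lysyl oxidases and latent TGF-beta binding proteins, had 16 of 16 negative log2 fold changes, a median of -0.60 and 0 calls, with 10 at an unadjusted p under 0.05 (29.6% of all tested genes). The exact test called 6 of them lower, DESeq2 5, limma-voom 0 and the quasi-likelihood test without KO3 15, against 7.15%, 7.61%, 2.21% and 16.2% of all genes called lower. The lowest p-values belonged to Ltbp2 (-0.57, adjusted p = 0.0735) and Efemp1 (-0.64, adjusted p = 0.0775). The summed level of the list was 1425 to 1864 CPM in WT and 767.9, 946.5 and 1452 CPM in KO1, KO2 and KO3, so that KO3 was again within the WT range.

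Beside Mlxipl, 20 of 22 partners and targets were tested, with a median of -0.26, 13 negative, 7 positive, 0 called higher and 1 called lower (8 called without KO3, when 33.0% of all genes were called). The called gene was Acacb, which encodes the acetyl-CoA carboxylase of mitochondria, at 264, 228 and 243 CPM in WT and 89.8, 124 and 168 CPM in KO (log2 fold change -0.94, adjusted p = 0.0453). Its libraries were ordered like those of Mlxipl in KO, from KO1 as the lowest to KO3 as the highest, but not in WT. KO3 was the highest KO library in 44.5% of all tested genes, so this order is common. The sum of the list was 5838 to 7242 CPM in WT and 4493, 5403 and 6874 CPM in KO. Most of this sum was Scd1, at 3867, 3162 and 4075 CPM in WT and 1987, 2670 and 3691 CPM in KO. Scd1 was not called in the quasi-likelihood test (adjusted p = 0.322), so the sum says little about the other genes of the list. The list has Scd1 in common with the sebaceous gland markers, where it was also the largest part of the sum.

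Beside Baz1b, 13 genes of ISWI complexes and of the complexes that WSTF joins had a median of 0.35, and 11 were positive, with 1 call (4 at an unadjusted p under 0.05, 3 by the exact test, 3 by DESeq2, 1 by limma-voom, 7 without KO3). Ddx21, an RNA helicase of the nucleolus, was called higher at 170.6 ± 3.7 CPM in KO against 89.2 ± 15.8 CPM in WT (log2 fold change 0.94, adjusted p = 0.0126). Beside Bcl7b, 22 of 23 BAF complex genes were tested, with a median of -0.08 and 0 calls (5 at an unadjusted p under 0.05, 1 by the exact test, 3 by DESeq2, 0 by limma-voom, 4 without KO3). The lowest p-values there were those of the subunit genes Smarcd3 (-0.77, adjusted p = 0.0697) and Dpf3 (-0.74, adjusted p = 0.078). Of all 15009 tested genes, 4.38% were called higher and 2.09% lower, and 29.6% had an unadjusted p under 0.05. The exact test called 1165 genes higher and 1073 lower, and DESeq2 called 1426 and 1142. Without KO3 the quasi-likelihood test called 33.0% of all genes.

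Beside Tbl2, 12 genes of the PERK stress pathway had a median of -0.03, and 2 were called higher (4 called without KO3). Of all tested genes 4.38% were called higher, and 33.0% were called without KO3. The exact test called 3 of the 12 higher and 1 lower, against 1165 and 1073 of 15009 genes. The 2 genes called by the quasi-likelihood test were Asns, asparagine synthetase (23.9 ± 4.0 CPM in WT and 53.5 ± 7.3 CPM in KO, log2 fold change 1.16, adjusted p = 0.00817), and Hspa5, the chaperone BiP (286 ± 35.7 CPM in WT and 471 ± 6.7 CPM in KO, log2 fold change 0.72, adjusted p = 0.0257). Tbl2 itself was at -0.06.

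No gene was called in the remaining lists by the quasi-likelihood test or by limma-voom. At an unadjusted p under 0.05 there were 5 genes beside Limk1, 4 beside Clip2, 1 beside Rfc2, 3 beside Lat2 and 3 beside Eif4h, while in this order the exact test called 2, 1, 1, 0 and 0 and DESeq2 called 3, 2, 1, 0 and 2. The quasi-likelihood test without KO3 called 7, 5, 2, 2 and 3, in lists of 18, 10, 10, 12 and 11 tested genes, when it called 33.0% of all genes. Of all 15009 tested genes, 29.6% had an unadjusted p under 0.05. The exact test called 1165 of all genes higher and 1073 lower, and DESeq2 called 1426 and 1142. For 18 actin regulators beside Limk1 the median was 0.04, with the lowest p in Dstn (0.83, adjusted p = 0.0532) and Cfl2 (-0.60, adjusted p = 0.059), both of which encode actin-severing proteins of the cofilin family, and with opposite signs. For 10 microtubule plus end genes beside Clip2 the median was 0.07, with the lowest p in Mapre3 (-0.54, adjusted p = 0.0662) and Clip1 (0.57, adjusted p = 0.101). For 10 clamp loader genes beside Rfc2 the median was 0.26, with the lowest p in Rfc1 (0.76, adjusted p = 0.0893) and Atad5 (0.59, adjusted p = 0.194). For 12 genes of immune receptor signalling beside Lat2 the median was 0.12, with the lowest p in the kinases Zap70 (0.90, adjusted p = 0.118) and Syk (-0.44, adjusted p = 0.121). For 11 cap-binding initiation genes beside Eif4h the median was 0.20, with the lowest p in Eif4g2 (0.60, adjusted p = 0.0886) and Eif4a1 (0.44, adjusted p = 0.106), which encodes the helicase that eIF4H stimulates.

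**Figure D5:**
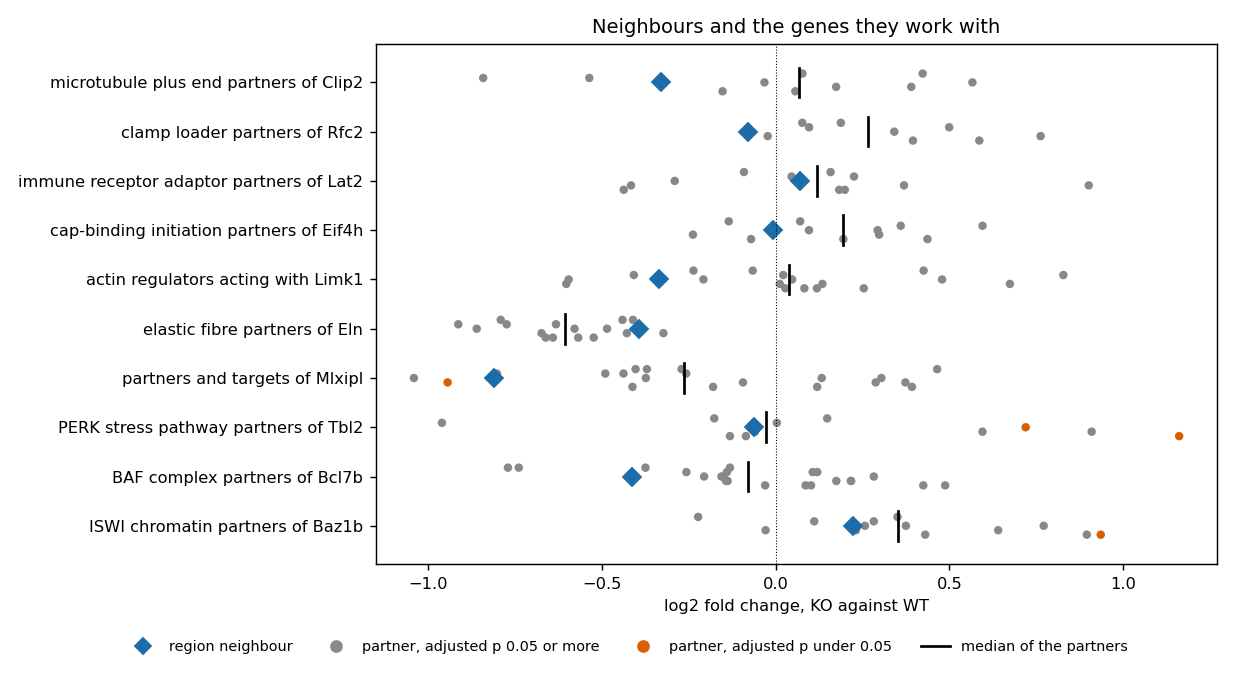
Log2 fold change (KO against WT) of each of the 10 genes (blue diamond) beside its tested partner genes (circles, orange where the adjusted p was under 0.05), with a black line at the median of the partners. All 16 elastic fibre genes lie left of 0, and 4 partners in all were called, Acacb lower and Ddx21, Asns and Hspa5 higher.

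Finally, the genes whose pattern was most like that of Mlxipl and of Baz1b, the members with the lowest p in each direction, were found by the root mean square difference of centred log2 CPM over the 6 libraries. For Mlxipl these were Rem1 (0.0297), Gyg (0.0427) and 2310007L24Rik (0.0431), against a median of 0.501 over all tested genes. Of these, Gyg, which encodes glycogenin, was called lower (log2 fold change -0.83, adjusted p = 0.0433). For Baz1b they were Zrsr2 (0.034), Kdm1b (0.039) and Zfp236 (0.0443), against a median of 0.334, and none of these was called. Rem1 and 2310007L24Rik were low, at 1.13 to 2.8 CPM and 0.819 to 1.96 CPM over the 6 libraries, so counting error limits how closely they can be matched. With 6 libraries that fall into 2 genotypes, such likeness is a description only.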

How the data were processed

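The deposited values are raw counts: the authors aligned paired-end reads to GRCm38 with TopHat2 2.0.8 and Bowtie2 2.1.0, as the submitters' processing notes name them, and HTSeq assigned reads uniquely to annotated genes. Neither the mode nor the strand setting of the counting is given in the sources used here, and 0 columns were left unused.

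From these counts, genes that reached 1 CPM in 3 or more libraries were compared in edgeR 4.0.16 (R 4.3.3) by the quasi-likelihood F test (glmQLFit with legacy=FALSE) after TMM scaling, with Benjamini-Hochberg adjustment over all 15009 tested genes and a threshold of 0.05. The authors' exact test, DESeq2 1.42.0, limma-voom (limma 3.58.1), the older quasi-likelihood fit, other scalings and filters, a replicate block, an adjusted p under 0.1 and each library left out in turn were the alternatives. CPM values are TMM scaled, and log2 CPM used a prior count of 2. Intervals of log2 fold changes are 95% intervals from the same fit. Total counts were 20164081 to 29491767 per library. Figures used Python 3.11.15 with matplotlib 3.10.9.

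Positions, exonic lengths and overlaps came from GENCODE's annotation for GRCm38. There, 24802 of 26814 symbols were found by symbol, 1252 by an older symbol and 760 not at all. Promoter windows came from RefSeq. The procedure was tested on simulated data. Beside the 10 genes, the text names the called genes of each list or else those with the lowest p (2, or 3 for the other region genes), and the 3 genes most like a member. The called cell type markers were named after their values were seen. The members and lists were chosen with earlier results of these data known.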

Additional observations from a re-analysis of the deposited data

How the results depend on the processing

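The 10 genes gave 160 fold changes over 16 alternatives, of which 140 kept both direction and side of the threshold, 13 turned sign and 7 newly passed an adjusted p of 0.05. No gene of the 10 was called with all libraries in edgeR's quasi-likelihood test, 1 was called by the exact test, by DESeq2, by limma-voom and at an adjusted p under 0.1 (8.53% of all genes were then called lower), and 0 to 4 with 1 library left out. For the other region genes these numbers were 0, then 1 by the exact test, 2 by DESeq2 and 2 at an adjusted p under 0.1, and 0 to 3 with 1 library left out. For genes within 1 Mb they were 0, then 2, 3, 1 by limma-voom and 3 at an adjusted p under 0.1, and 0 to 8. Over all genes, 657 were called higher and 314 lower, against 1165 and 1073 by the exact test, 1426 and 1142 by DESeq2, 1248 and 1281 at an adjusted p under 0.1, and 207 lower with DESeq2's size factors and 204 lower both without a filter and with at least 10 counts in every library. With 1 library left out, 208 (without KO2) to 2496 (without KO3) were called higher and 18 to 2395 lower, and the cause was not tested. The signs that turned were those of Rfc2 (-0.18 to 0.071 with 1 library left out), Lat2 (-0.048 to 0.20), Tbl2 (-0.13 to 0.038) and Eif4h (-0.13 to 0.13, and 0.019 by DESeq2 and by its size factors and 0.043 without a filter). Of the scalings, upper-quartile moved the median of all genes most, to -0.079 from -0.023.

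Replicate numbers are shared between genotypes. Deviations of same-numbered libraries from their genotype mean correlated at -0.192, 0.293 and 0.312 across genes, and not every library correlated best with its own number. Such deviations cancel within a genotype, so these values constrain each other. They cannot show whether same-numbered samples share more than a number. With a replicate block, 580 genes were called higher and 217 lower, and 0 of the 10 genes. Mlxipl had a log2 fold change of -0.83 (adjusted p = 0.0688) and Eln one of -0.56 (adjusted p = 0.184) in that fit. The count of 140 for Lat2 in KO1 was the lowest of the 10 genes, so that depth limits Lat2 most.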
